A study of Aspergillus nidulans with 6 samples.

Results

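Expression of the arginine, proline and GABA (4-aminobutyrate) genes was examined in RNA-Seq libraries of mycelium of the filamentous fungus A. nidulans. The genes are argB, otaA, ANIA_01733 and ANIA_02248, together with any of the proline cluster loci ANIA_01729 to ANIA_01732 that the deposited table holds. Of the latter, only prnB, which the RefSeq gene table of assembly ASM1142v1 pairs with ANIA_01732, is listed, so that 5 of 1375 listed genes were followed. The control, strain SAA.111, and celAΔ were compared with 3 libraries each, all from cultures grown for 3 days at 37 °C in liquid minimal medium with glucose and ammonium tartrate. The paper's methods also give 3 days, whereas its results name a later time-point for the RNA-Seq. SAA.111 carries veA1, biA1, riboB2, pyroA4 and wA3, and its argB gene is replaced by trpC (ΔargB). celAΔ was made from it by placing an argB cassette at the celA locus, it shares the other markers, and it is a single stable transformant. The sample labels call it a downregulated celA- strain in one field and a celA deletion in another. The strains therefore differ at celA and in argB, whose parts in any difference cannot be told apart, and whether arginine was added to the cultures is not given in the sources used here.

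Arginine, proline and GABA metabolism meet at glutamate. Ornithine carbamoyltransferase, encoded by argB, makes citrulline from ornithine on the way to arginine, whereas ornithine aminotransferase, encoded by otaA, turns ornithine from arginine breakdown into an aldehyde that closes to pyrroline-5-carboxylate. The latter is reduced to proline by pyrroline-5-carboxylate reductase or oxidized to glutamate by pyrroline-5-carboxylate dehydrogenase, the prnC product, which also completes the breakdown of proline taken up by the permease PrnB. GABA is formed from glutamate by glutamate decarboxylase and broken down by GABA transaminase, encoded by gatA, and succinate semialdehyde dehydrogenase. In A. nidulans the proline utilization genes lie in a cluster under the activator PrnA, and gatA is under the activator AmdR.

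The mapped reads derived from the table ranged from 3300251 to 3706233 per control library and from 4176645 to 5205011 per celAΔ library. The table holds only genes that the authors had selected for a difference between the strains on these same libraries. Levels are given as RPKM (reads scaled to gene length and sequencing depth). Differences were tested on unique reads with edgeR's quasi-likelihood test, with SE for the standard error of a log2 FC. The threshold was a p under 0.05 after Benjamini-Hochberg adjustment over the listed genes and a log2 FC (celAΔ over control) beyond 1 in either direction. It was passed by 93.6% of all listed genes, 41.1% higher and 52.5% lower in celAΔ. With adjustment over the 10516 loci that the assembly holds it was passed by 38.1%, 12.5% higher and 25.6% lower. The RPKM values of the strains did not overlap in 100% of the listed genes (46.7% higher, 53.3% lower), so that a lack of overlap is common to all of them. The deleted gene itself, ANIA_08444, was still read 33, 38 and 36 times in celAΔ, compared with 198, 197 and 111 times for SAA.111. Its mean level in celAΔ was 16.0% of the control level, a log2 FC of -2.64 (SE 0.35; edgeR, adjusted p = 0.00156). The paper ascribes this remaining level (3.8 RPKM on average) to probable residual heterokaryons, which was not tested here. Of 16 genes fixed as markers of conidia and conidiophores, 4 are listed (flbD, ANIA_05086, ANIA_10628 and ANIA_05015). The paper names these same genes as conidiation-related and raised in celAΔ, so that they are not independent of these libraries. In edgeR only 1 of the 4, ANIA_05086, passed the threshold. The summed level of the 4 markers was 41.0, 40.7 and 1247 RPKM for control replicates 1, 2 and 3, whereas celAΔ had 1623 to 3389 RPKM. ANIA_10628 was at 0 in control replicate 2, and ANIA_05015 alone had 943 RPKM in control replicate 3. Control replicate 3 thus stood apart, and the part of conidia in the results was not tested. In RNA from whole mycelium, fewer cells of a type and less RNA per cell cannot be told apart.

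All 5 genes passed the threshold, argB and otaA higher and ANIA_01733, prnB and ANIA_02248 lower in celAΔ, against the 93.6% of all listed genes. With all loci counted, 4 of these passed and otaA did not, against 38.1% of all listed genes (12.5% higher, 25.6% lower). Among the 4 is argB, whose difference is set by the construction of the strains. In the plot of the 5 genes by library, the span of the changes can be seen, from a difference of about 2-fold in otaA to one of 2630-fold in argB.

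**Figure D1:**
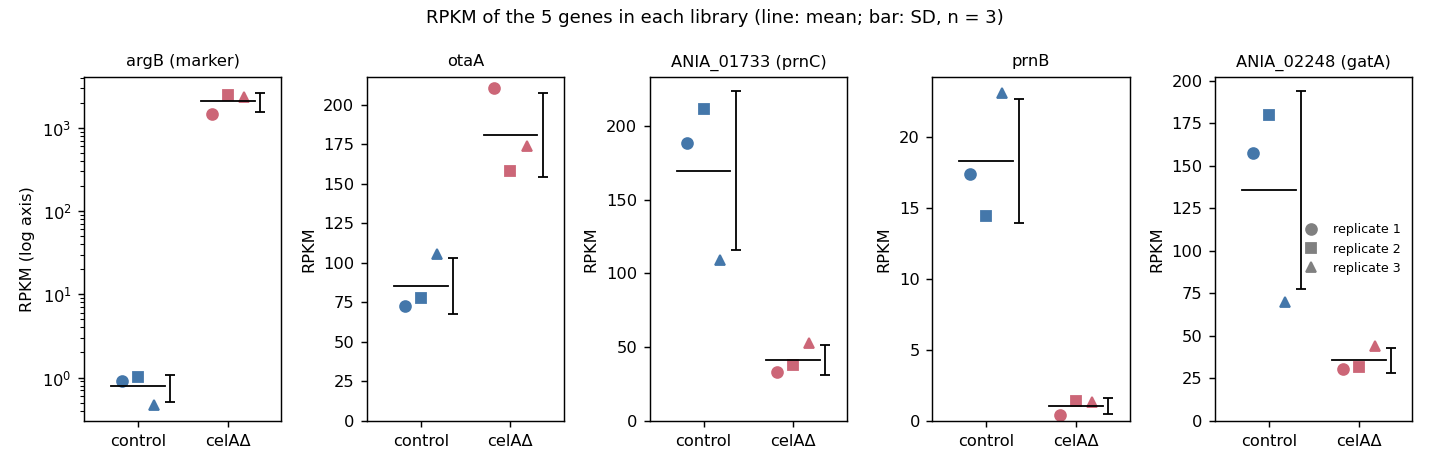
RPKM of argB, otaA, ANIA_01733 (prnC), prnB and ANIA_02248 (gatA) in the 3 control (blue) and 3 celAΔ (red) libraries; symbols mark the replicate number, lines the mean and bars the SD, and the argB axis is logarithmic. The strains do not overlap in any of the 5 genes, which holds for 100% of the listed genes. Control replicate 3 (triangle) lies nearest to celAΔ for otaA, ANIA_01733 and ANIA_02248 but farthest from it for argB and prnB.

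The gene argB served as the selectable marker and its difference is set by the construction of the strains. The control libraries held 4, 4 and 2 unique reads of it, the celAΔ libraries 8150, 15329 and 11624. Only traces of argB reads were thus found in the control. The mean rose from 0.794 ± 0.291 to 2090 ± 540 RPKM (SD, n = 3 each), a log2 FC of 11.32 (SE 0.63; edgeR, adjusted p = 0.00022). From the 10 control reads in total, counting error alone gives a ratio of 2657 with a 95% Poisson interval from 1445 to 5541. By mean RPKM in celAΔ, argB ranked 18 of the listed genes, and its log2 FC was the highest of all. The spread among the celAΔ libraries was moderate, the highest level being 1.68 times the lowest.

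The other listed genes of arginine synthesis moved the opposite way to argB. Besides argB, 4 genes are listed by annotation, and 4 of 4 were lower in celAΔ and passed the threshold, where 52.5% of all listed genes passed as lower. All 4 also passed with all loci counted, where 25.6% of the listed genes did so as lower. Their median log2 FC was -1.52, against -1.04 over all listed genes. ANIA_02243, which encodes the small subunit of carbamoyl-phosphate synthase and is named cpa1 in the assembly, was the most abundant of them per length. Its RPKM was 188, 218 and 178 for control replicates 1, 2 and 3, compared with 77.9, 63.5 and 58.8 for celAΔ replicates 1, 2 and 3. The lowest control value was 2.28 times the highest celAΔ value, a wider gap than the spread within either strain. Its log2 FC was -1.54 (SE 0.30; edgeR, adjusted p = 0.00449).

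The remaining 3 carry annotations of acetylated steps that lead to ornithine, and that of ANIA_01583 is marked as hypothetical. ANIA_07722, a glutamate N-acetyltransferase, fell from 35.4 ± 6.82 to 13.2 ± 0.466 RPKM (SD, n = 3 each). ANIA_01150, annotated as acetylornithine aminotransferase and also as ornithine transaminase, fell from 24.7 ± 4.87 to 8.79 ± 0.958 RPKM (SD, n = 3 each). The celAΔ means were thus 37.3% and 35.5% of the control means. ANIA_01583, a hypothetical acetylornithine deacetylase, showed the largest decrease of this group, from 55, 73 and 29 reads to 6, 10 and 0. Its log2 FC was -3.71 (SE 0.75), and without celAΔ replicate 2 it was -4.42. With scaling by the median of ratios, ANIA_01583 passed and the other 3 genes of the group did not.

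Ornithine aminotransferase was one of the 7 pathway genes, of 23, with a higher level in celAΔ. Control replicates 1, 2 and 3 gave 366, 351 and 518 unique reads of otaA, and celAΔ replicates 1, 2 and 3 gave 1331, 1122 and 992. The corresponding levels were 72.3, 77.9 and 105 RPKM for SAA.111 and 210, 158 and 174 RPKM for celAΔ. Every celAΔ library lay above every control library, the lowest celAΔ value being 1.501 times the highest control value, that of replicate 3. The means were 85.2 ± 17.6 and 181 ± 26.8 RPKM (SD, n = 3 each), 2.12-fold apart, with a log2 FC of 1.09 (SE 0.32; edgeR, adjusted p = 0.015). The change lay close to the limit of 1 and did not pass in several settings. Without control replicate 1 the log2 FC was 0.98 (edgeR, adjusted p = 0.0691), without control replicate 2 it was 1.03 (edgeR, adjusted p = 0.0556) and without celAΔ replicate 1 it was 0.96 (edgeR, adjusted p = 0.0379). With all loci counted the edgeR adjusted p of otaA was 0.115. Scaling by the median of ratios gave a log2 FC of 1.74.

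Both listed genes annotated as pyrroline-5-carboxylate reductase, the last enzyme of proline synthesis, were lower in celAΔ and passed the threshold, as did 52.5% of all listed genes. ANIA_07387 dropped from 78.2, 94.96 and 66.4 RPKM to 27.3, 21.9 and 24.7 RPKM, its log2 FC being -1.69 (SE 0.29; edgeR, adjusted p = 0.00281). Without overlap, the celAΔ mean was 30.9% of the control mean. ANIA_04355, the weaker of the pair, dropped from 31, 42 and 23 reads to 7, 9 and 2, with a log2 FC of -2.82 (SE 0.49). ANIA_07387 made up 87.6 to 90.8% of the summed RPKM of both genes in the control and 92.3 to 98.0% in celAΔ. Among these genes, otaA, whose aminotransferase leads to pyrroline-5-carboxylate, was thus higher and both reductase genes were lower in celAΔ. ANIA_01150, whose annotation also names an ornithine transaminase, was lower.

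The gene for the enzyme that oxidizes pyrroline-5-carboxylate was lower in celAΔ as well. ANIA_01733, the pyrroline-5-carboxylate dehydrogenase named prnC in the assembly, was covered by 1199, 1201 and 677 reads for control replicates 1, 2 and 3, and by 262, 341 and 377 for celAΔ replicates 1, 2 and 3. As RPKM these were 188, 212 and 109 for SAA.111, and 32.9, 38.1 and 52.5 for celAΔ. Control replicate 3 held 54.6% of the mean of the other control libraries and was still 2.08 times the highest celAΔ library. The means, 170 ± 53.7 and 41.2 ± 10.2 RPKM (SD, n = 3 each), were 4.12-fold apart, with a log2 FC of -2.04 (SE 0.39; edgeR, adjusted p = 0.00417). The log2 FC lay between -2.28 (without control replicate 3) and -1.85 (without control replicate 2) when 1 library was left out, and passed in all 6 fits. It was -1.33, and past the threshold, with scaling by the median of ratios.

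The permease gene prnB, which precedes ANIA_01733 in the assembly, showed the steepest decrease of the 23 pathway genes. Its reads numbered 107, 79 and 138 for control replicates 1, 2 and 3 but 3, 12 and 9 for celAΔ replicates 1, 2 and 3. The levels were 17.4, 14.4 and 23.1 RPKM for SAA.111, compared with 0.390, 1.39 and 1.30 RPKM for celAΔ. Even the lowest control library was 10.4 times the highest celAΔ library. The log2 FC was -4.13 (SE 0.48; edgeR, adjusted p = 0.0013), and with all loci counted the edgeR adjusted p was 0.00997. The ratio of pooled reads was 17.8, with a 95% Poisson interval from 12.0 to 27.8 for the 24 celAΔ reads. Unlike ANIA_01733, prnB was highest in control replicate 3, at 1.45 times the mean of the other control libraries.

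In the proline cluster of 5 loci, prnB and ANIA_01733 are the 2 that are listed, and the remaining loci, prnD among them, were not analysed here. Within 10 loci of ANIA_01733 on either side, 3 further genes are listed, and they did not move together. ANIA_10233, a 6-phosphogluconate dehydrogenase that lies 2 loci beyond ANIA_01733, was higher in celAΔ (log2 FC 2.96), whereas ANIA_01736 and ANIA_01726 were lower (log2 FC -2.10 and -1.29). The control level of ANIA_10233 came mostly from replicate 3, at 38.7 RPKM compared with 5.61 and 7.11 RPKM for replicates 1 and 2, and its log2 FC ranged from 2.54 to 4.39 with 1 library left out. All 3 passed in edgeR, as did 93.6% of all listed genes. With all loci counted only ANIA_01736 passed, where 38.1% of all listed genes did. ANIA_01726 passed in 2 of the 6 fits with a library left out. These neighbours are no pathway genes and were chosen by position.

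The GABA transaminase gene was also lower in celAΔ. ANIA_02248, named gatA in the assembly, was read 875, 887 and 378 times for control replicates 1, 2 and 3, and 213, 247 and 276 times for celAΔ replicates 1, 2 and 3. SAA.111 thus had 158, 180 and 70.0 RPKM, celAΔ 30.7, 31.7 and 44.1 RPKM. The control libraries differed by up to 2.56 times among themselves, and replicate 3, the lowest, was 1.59 times the highest celAΔ library. The means were 136 ± 58.0 and 35.5 ± 7.498 RPKM (SD, n = 3 each), with a log2 FC of -1.93 (SE 0.43; edgeR, adjusted p = 0.00646). With all loci counted, the edgeR adjusted p of ANIA_02248 was 0.0494, close to the limit, and scaling by the median of ratios gave a log2 FC of -1.21, past the threshold.

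The likeness of genes to one another was measured as the root mean square difference of log2(RPKM + 1), centred on the mean of each gene over the 6 libraries, and is given as a description. Among 947 listed genes with a mean of at least 10 RPKM (948 for prnB), ANIA_02248 was the fourth nearest to ANIA_01733 and ANIA_01733 the fourth nearest to ANIA_02248, at a difference of 0.16. The median over all genes was 1.57 for ANIA_01733 and 1.52 for ANIA_02248. Nearest to ANIA_01733 were ANIA_04515, a putative transglycosidase, ANIA_00006, a conserved hypothetical protein, and ANIA_03591, a putative methylmalonate-semialdehyde dehydrogenase, at 0.15 to 0.16. ANIA_03591 was also among the 3 nearest to ANIA_02248, besides ANIA_00554, an aldehyde dehydrogenase, and ANIA_05792, a conserved hypothetical protein. The nearest to prnB were all annotated as transporters, namely ANIA_08279 for basic amino acids, ANIA_08095 (a toxin efflux pump) and ANIA_09010 (nicotinic acid). They lay at 0.39 to 0.42, farther than the nearest genes of the other members, and ANIA_01733 was only the 85th nearest to prnB. The mean of prnB in celAΔ was 1.03 RPKM, so that the added 1 narrows its difference here. For otaA the nearest were ANIA_04536, a putative protein kinase, ANIA_06565 and ANIA_01057, at 0.05 to 0.10.

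Ratios within a library do not depend on its scaling. In all, 6 ratios were computed, for pairs chosen after their values were seen, so that they are given as a description with no test. For each 100 RPKM of ANIA_01733, ANIA_02248 had 83.8, 84.8 and 64.1 RPKM in SAA.111, and in celAΔ 93.4, 83.2 and 84.1 RPKM. The strains overlap in this ratio. In turn, otaA had 38.4, 36.8 and 96.4 RPKM for each 100 RPKM of ANIA_01733 in SAA.111, and 640, 414 and 331 RPKM in celAΔ, so that the order of both genes was inverted in every celAΔ library. On the same scale, prnB had 9.25, 6.82 and 21.1 RPKM in SAA.111, and 1.19, 3.65 and 2.47 RPKM in celAΔ. It was thus lower in celAΔ also relative to its neighbour. For each 100 RPKM of ANIA_02243, otaA had 35.7 to 59.2 RPKM in SAA.111 and 249 to 296 RPKM in celAΔ. For each 100 RPKM of ANIA_02248, ANIA_07278 had 0 to 11.6 RPKM in SAA.111 and 91.6 to 239 RPKM in celAΔ. The ratio of ANIA_07387 to ANIA_01733 overlapped between the strains.

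**Figure D2:**
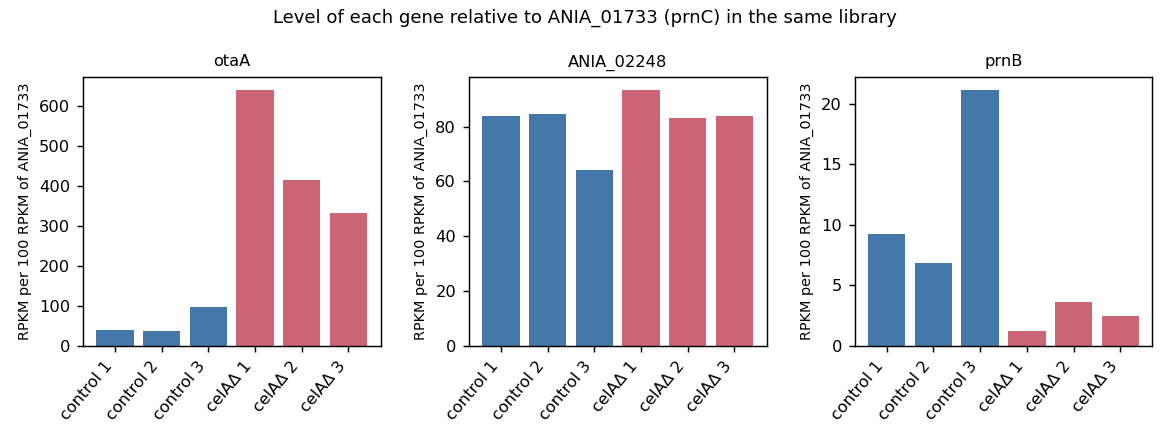
Level of otaA, ANIA_02248 and prnB in RPKM per 100 RPKM of ANIA_01733 (prnC) in the same library; each bar is 1 library, control in blue and celAΔ in red. The bars of ANIA_02248 lie between 64.1 and 93.4 in both strains, whereas those of otaA are higher and those of prnB lower in all 3 celAΔ libraries.

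Other genes of GABA metabolism went in both directions, with 4 of the 9 listed higher and 5 lower. All 9 were past the threshold, close to the 93.6% of all listed genes (41.1% higher, 52.5% lower). With all loci counted, 3 of the 9 passed, against 38.1% of all listed genes. Besides ANIA_02248, the lower genes included ANIA_10011, annotated as succinate semialdehyde dehydrogenase, which fell from 25.2 ± 5.79 to 8.31 ± 1.65 RPKM (SD, n = 3 each). The regulator amdR was also lower, at 7.88, 11.8 and 12.4 RPKM instead of 22.5, 24.2 and 20.5 RPKM. The difference of amdR was larger than the spread within strains, with a log2 FC of -1.07 (SE 0.29; edgeR, adjusted p = 0.0121). It did not pass without celAΔ replicate 1 (log2 FC -0.89), with scaling by the median of ratios (log2 FC -0.38; edgeR, adjusted p = 0.224), in DESeq2 (log2 FC -0.38, adjusted p = 0.151) or with all loci counted (edgeR, adjusted p = 0.0923).

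In contrast, the gene for the enzyme that forms GABA was higher in celAΔ. ANIA_07278, a glutamate decarboxylase, was read 2, 0 and 46 times for control replicates 1, 2 and 3, compared with 204, 617 and 510 times for celAΔ replicates 1, 2 and 3. Nearly all control reads thus came from replicate 3, the library with the high conidiation markers. The mean level rose from 2.83 ± 4.61 to 60.6 ± 28.2 RPKM (SD, n = 3 each). The log2 FC was 4.40 (SE 1.30; edgeR, adjusted p = 0.0151), it rose to 8.24 without control replicate 3, where 2 control reads remain, and the gene did not pass with all loci counted (edgeR, adjusted p = 0.116).

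The 5 listed GABA transporters changed their order. ANIA_07958, ANIA_02043 and ANIA_02962 were higher and ANIA_04124 and ANIA_01061 lower in celAΔ. ANIA_07958 went from 4, 14 and 12 reads to 186, 378 and 291, its log2 FC being 4.39 (SE 0.53; edgeR, adjusted p = 0.00132). It is the only one of the 5 that passed with all loci counted, where 38.1% of all listed genes passed. ANIA_02043 went from 5.84, 2.78 and 37.5 RPKM (control replicates 1, 2 and 3) to 111, 131 and 141 RPKM, and its log2 FC of 3.05 became 4.87 without control replicate 3. ANIA_04124 and ANIA_01061 fell by close to the limit, with a log2 FC of -1.07 each. Together, ANIA_04124 and ANIA_01061 made up 81.9, 78.8 and 53.6% of the summed RPKM of the 5 transporters for control replicates 1, 2 and 3, but 19.0, 15.3 and 14.9% for celAΔ. The sum itself was 105 to 133 RPKM in the control and 207 to 266 RPKM in celAΔ.

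By mean level, the order in the control was ANIA_04124 (45.6 ± 5.49 RPKM), ANIA_01061 (37.5 ± 6.64 RPKM), ANIA_02962 (17.7 ± 4.03 RPKM), ANIA_02043 (15.4 ± 19.2 RPKM) and ANIA_07958 (1.92 ± 1.09 RPKM). In celAΔ it was ANIA_02043 (128 ± 15.1 RPKM), ANIA_07958 (40.5 ± 12.0 RPKM), ANIA_02962 (36.8 ± 6.52 RPKM), ANIA_04124 (21.7 ± 3.47 RPKM) and ANIA_01061 (17.8 ± 3.24 RPKM, SD, n = 3 throughout). Neighbours in these orders overlapped between libraries, except ANIA_01061 and ANIA_02962 in the control and, in celAΔ, ANIA_02043 and ANIA_07958 as well as ANIA_02962 and ANIA_04124. The control order did not hold in replicate 3, where ANIA_02043 (37.5 RPKM) lay above ANIA_01061 (32.0 RPKM). The calls of ANIA_02962, ANIA_04124 and ANIA_01061 each depended on single libraries. ANIA_02962 and ANIA_01061 fell short when control replicate 1, celAΔ replicate 2 or celAΔ replicate 3 was left out, with a log2 FC from 0.92 to 1.01 and from -1.04 to -0.92, respectively. ANIA_04124 fell short when control replicate 1 (log2 FC -0.998) or celAΔ replicate 1 (log2 FC -0.95) was left out. With scaling by the median of ratios, ANIA_02962 had a log2 FC of 1.72 and passed, whereas ANIA_04124 and ANIA_01061 had one of -0.38 each and did not.

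Polyamine, urea and glutamine genes complete the picture. ANIA_06658, a putative polyamine oxidase, was the most abundant of the 23 pathway genes in the control, with 1111, 1228 and 591 RPKM against 495, 201 and 215 RPKM in celAΔ. The nearest values, those of control replicate 3 and celAΔ replicate 1, were only 1.19 times apart. Its log2 FC was -1.69 (SE 0.51), and leaving out control replicate 2 or celAΔ replicates 2 or 3 ended the call, with a log2 FC from -1.49 to -1.46. ANIA_10959, a putative glutaminase, fell from 39.6 ± 12.5 to 12.1 ± 4.13 RPKM, and ANIA_00232, annotated as a urease accessory protein, fell from 120 ± 23.4 to 49.6 ± 1.79 RPKM (SD, n = 3 each). With all loci counted, ANIA_06658, ANIA_10959 and ANIA_00232 did not pass (edgeR, adjusted p = 0.128, 0.0572 and 0.0503). They also fell short with scaling by the median of ratios and in DESeq2. The putative agmatinase ANIA_06869 was read only 2, 1 and 0 times in SAA.111, and 4, 9 and 8 times in celAΔ, a ratio of 5.30 with a 95% interval from 1.58 to 27.7 by counting error alone. Its call was lost without celAΔ replicate 2 or 3, in limma on log2(RPKM + 1), where the log2 FC was 0.84, and with all loci counted (edgeR, adjusted p = 0.137), and its log2 FC went from 2.29 to 3.13 without control replicate 1. Of 6 regulators of nitrogen metabolism that were looked for (areA, areB, nmrA, tamA, meaB and cpcA), 0 are listed, and they were not analysed here.

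**Figure D3:**
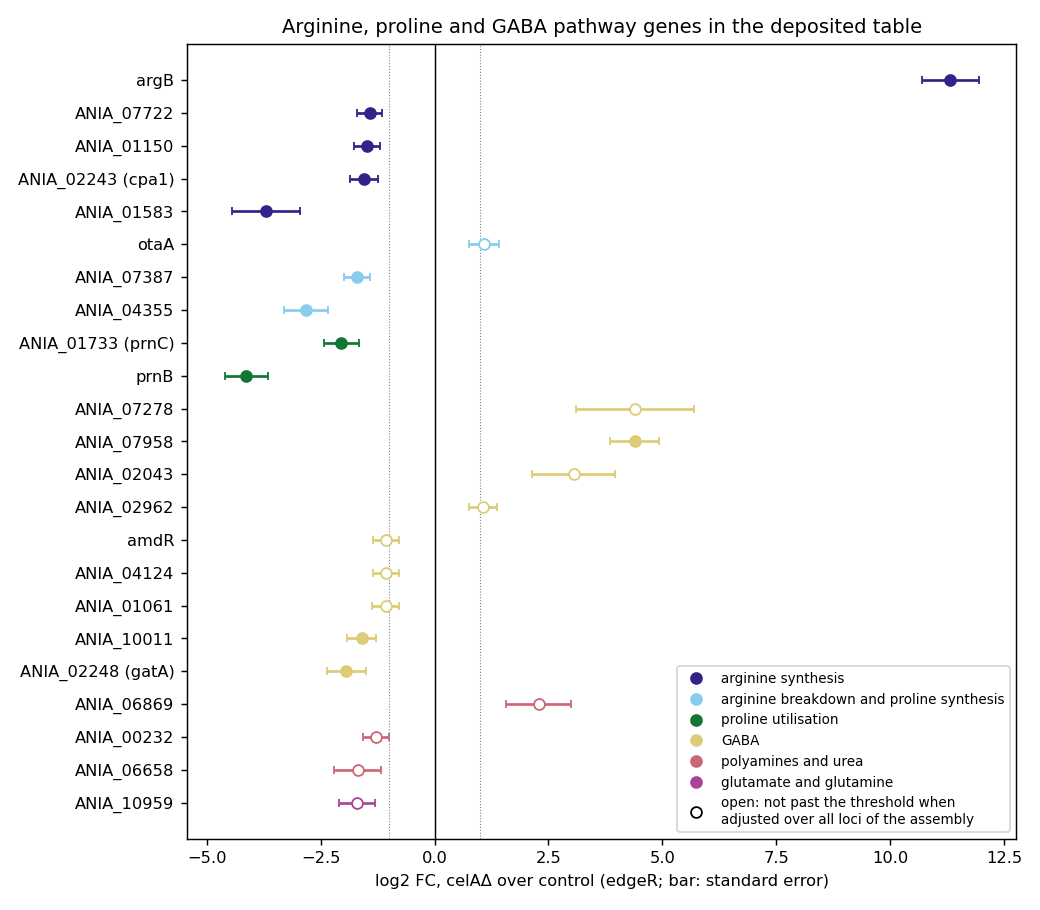
log2 FC of celAΔ over control (edgeR) for the 23 listed pathway genes, grouped by list, with bars for the standard error; dotted lines mark a log2 FC of 1 and -1, and open symbols the genes that fell short when the adjustment counted all loci. With argB at 11.32 and prnB at -4.13 as the extremes, 7 genes lie to the right of 0 and 16 to the left.

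Of the 23 pathway genes, 7 were higher and 16 lower in celAΔ, and 23 passed the threshold (100% against 93.6% of all listed genes), with a median log2 FC of -1.42 against -1.04. With all loci counted, 12 passed, 2 higher and 10 lower, or 52.2% against 38.1%. The 2 higher genes were ANIA_07958 and argB, and the difference of argB is set by the construction of the strains. Of the 18 pathway genes other than the 5 members, 8 passed with all loci counted. As the listed genes were selected by the authors on these libraries, these shares are a description. Scaling the libraries by the median of ratios of the listed genes moved the median of all listed genes from -1.04 to -0.35, a shift of 0.69. Under it no pathway gene changed direction, but 6 of the 16 lower genes passed (prnB, ANIA_01733, ANIA_02248, ANIA_07387, ANIA_04355 and ANIA_01583). The other 10 had a log2 FC from -0.997 to -0.38 and did not pass. DESeq2 with its own size factors left the same 6, and the share of higher genes among all calls went from 43.9% to 63.6% and 63.9%, respectively.

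Control replicate 3 was intermediate for most of these genes. Among the 16 lower pathway genes, 15 had their lowest control level in replicate 3, prnB being the exception. That is 93.8%, against 75.2% of all listed genes with a negative log2 FC. Among the 7 higher genes, 4 had their highest control level there (otaA, ANIA_07278, ANIA_02043 and ANIA_02962), which is 57.1% against 74.7% of all listed genes with a positive log2 FC. In the same library the summed conidiation markers stood at 1247 RPKM, against 41.0 and 40.7 RPKM in the other control libraries, and their part in the levels of the pathway genes was not tested. The values without this library are larger for ANIA_01733 (log2 FC -2.28), ANIA_02248 (-2.25) and otaA (1.27) and smaller for prnB (-3.93), and all 4 passed.

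**Figure D4:**
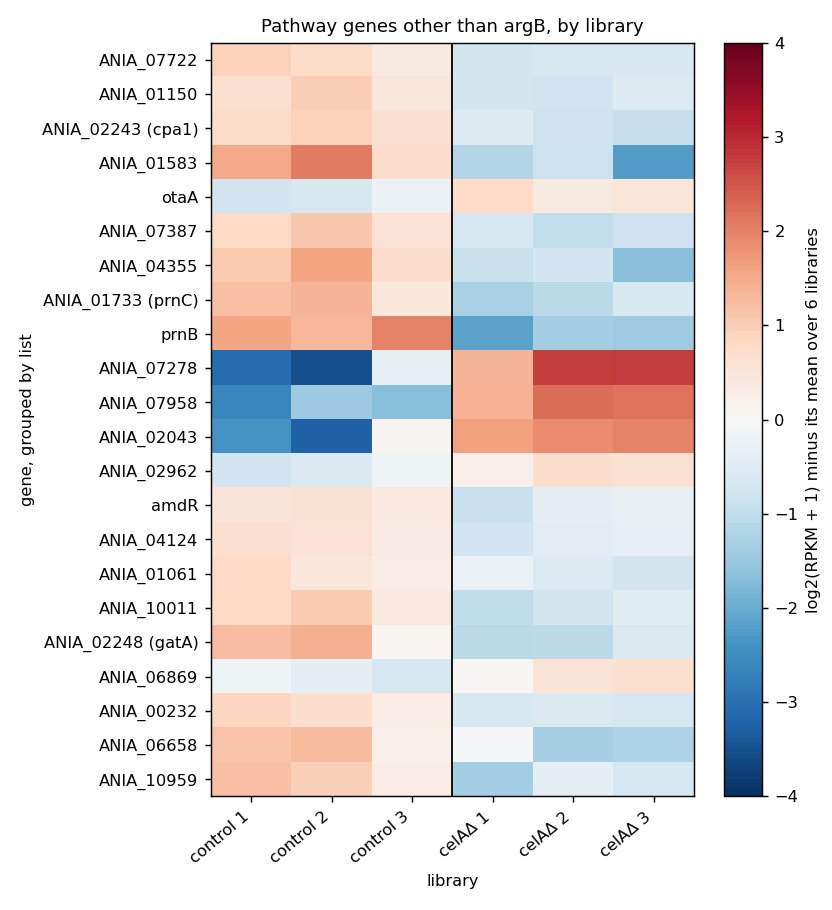
log2(RPKM + 1) minus its mean over the 6 libraries for the 22 listed pathway genes other than argB, by library, with red above and blue below the mean of the gene. The control libraries are on the left of the black line; control replicate 3 is the lowest control library for 15 of the 16 lower genes, and prnB, in which it is the highest, is the exception.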

How the data were processed

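RNA-Seq libraries of SAA.111 and celAΔ (3 each) were analysed. The authors cleaned the reads and, in CLC Genomics Workbench, aligned them to the transcriptome of FGSC A4, where a read may have more than 1 hit. They deposited unique gene reads (raw counts) and RPKM, for which the authors scaled the reads to gene length and mapped reads. The authors also deposited mean RPKM values and the unadjusted p-value of their own comparison, and neither was used. The table holds only genes under their p-value limit that are at least 2-fold apart.

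Mapped totals were derived from reads, length and RPKM, and at least 98.5% of genes per library agreed within 1 read. For the 23 pathway genes 100% of reads were unique. The design named edgeR (version 4.0.16, R 4.3.3) on counts, with these totals as library sizes, without normalization factors, with a prior count of 0.125 and no filter; tests were two-sided and adjusted over the 1375 listed genes. Standard errors were derived from the log2 FC and the F statistic. The test was checked on simulated counts. Its error rate on the listed genes, which the authors had selected for a difference, was not tested. Of the identifiers, 1372 were found in ASM1142v1 and 3, otaA among them, were not. Coordinates of the assembly were used only to order the loci around ANIA_01733.

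The members and lists were chosen with earlier results of these data known. Named genes are the members, all genes of the pathway lists (annotation words or symbols), the 3 nearest to each member and the neighbours by position, which were added after the values were seen, like the ratios, for which no test is given. Replicates are biological per the labels, which do not say whether they are separate cultures, so that the spread may be partly technical. Alternatives were limma 3.58.1 on log2(RPKM + 1) and log2(RPKM + 0.1), DESeq2 1.42.0, TMM factors, median of ratios, a mean RPKM of at least 1, the replicate number as a block, each library left out, and adjustment over all loci. Intervals cover counting error only. Python 3.11.15 with scipy 1.17.1 was used.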

Additional observations from a re-analysis of the deposited data

How the results depend on the processing

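The log2 FC of argB, ANIA_01733, prnB and ANIA_02248 kept their direction and stayed past the threshold in all 14 alternatives. For otaA the direction was kept, but the call was lost with the replicate number as a block (log2 FC 1.09, edgeR adjusted p = 0.0509), with all loci counted in the adjustment (1.09, the same value with a larger adjusted p) and when control replicate 1, control replicate 2 or celAΔ replicate 1 was left out. With 1 library left out it ranged from 0.96 to 1.27. With a block the agmatinase ANIA_06869 also lost its call (log2 FC 2.26, edgeR adjusted p = 0.0546), and no other pathway gene did. Same-numbered libraries showed no consistent pairing, as the correlations of their deviations from the strain means were 0.192, -0.189 and 0.161. With 3 libraries per strain and genes selected for a difference, these values cannot exclude a pairing. With the block 1258 listed genes passed against 1287 without it. Leaving out 1 library gave 992 to 1321 listed genes, and adjustment over all loci 524. Of the pathway genes, 16 were lower and past the threshold, 6 with DESeq2, 6 with the median of ratios and 10 with adjustment over all loci, and 7 were higher, 2 with adjustment over all loci. With adjustment over all loci, only the number of loci counted differs from the main fit. With the median of ratios, only the scaling of the libraries differs. In DESeq2 both the scaling and the test differ, and their parts were not separated. Why the scalings differ was not tested. For the 18 pathway genes other than the 5 members, 205 of 251 values from alternatives kept direction and call, and 46 kept direction only. The agmatinase has no value under a mean RPKM of at least 1. The few control reads limit the precision for argB, ANIA_07278, ANIA_07958 and ANIA_06869.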
